A study of Mus musculus with 18 samples.

Results

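The 9 genes described here encode proteins with which a phagocyte recognises phosphatidylserine on dying or aged cells. They are 4 receptors (Timd4, Mertk, Axl and Tyro3), 3 soluble bridging molecules (Gas6, Pros1 and Mfge8) and 2 integrin subunits (Itgav and Itgb3). Members were chosen by symbol, through the match of Ensembl identifiers to GENCODE M21, and each had 1 row among the 55414 gene identifiers of the count table. Polyadenylated RNA of Wild Type C57BL/6J mice was sequenced in 2 experiments, whose subject, per the series title, is erythrocyte turnover under particulate air pollution. The groups were whole spleens of mice exposed to PM2.5, the fine fraction of airborne particles (n = 4), whole spleens of mice kept in filtered air (n = 4), spleen macrophages of PM2.5-exposed mice (n = 5) and spleen macrophages of air-exposed mice (n = 5). All 18 samples carry an exposure time of 30 days. The exposed groups are labelled CAP, which the labels leave unexpanded, and were taken as PM2.5 because the protocol names no other exposure. The protocol of the second experiment also mentions filtered air after the exposure, without saying how long it lasted. The labels give neither the age and sex of the mice nor how the macrophages were isolated. They do not say whether a sample is 1 animal, so p-values measure the spread between these samples.

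Cells that die, and red cells at the end of their life, expose phosphatidylserine on the outer leaflet of the plasma membrane. Timd4 encodes TIM-4, which binds the lipid directly and tethers the particle. The TAM receptor tyrosine kinases Tyro3, Axl and Mertk bind it through the vitamin K-dependent ligands Gas6 and protein S, the product of Pros1. The secreted protein MFG-E8 joins the lipid to integrins that contain the alpha v chain, encoded by Itgav, paired for instance with the beta 3 chain, encoded by Itgb3. In the spleen, red pulp macrophages clear aged red cells, and follicular dendritic cells are a known source of MFG-E8.

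The macrophage preparations carried the markers of red pulp macrophages, such as Adgre1, Vcam1, Spic and Slc40a1. The summed level of 10 such markers lay between 16355 and 23069 CPM (each gene's count divided by the TMM-scaled size of its library, here on a scaling shared by all 18 libraries) in macrophage PM2.5 libraries and between 19260.5 and 27447 CPM in macrophage air libraries. It was 564 to 841 CPM in spleen PM2.5 libraries and 319 to 620.4 CPM in spleen air libraries. On this scaling 6 marginal zone macrophage markers summed to 874 to 1308 CPM in macrophage air and 96.4 to 190 CPM in spleen air. For 7 monocyte markers the sums were 607 to 777 CPM in macrophage air and 114 to 190 CPM in spleen air. Libraries held 18848048 to 33844807 counts in macrophage PM2.5, 18107264 to 29013034 in macrophage air, 18427891 to 19906706 in spleen PM2.5 and 16493694 to 20352346 in spleen air. Other cells were present too, since 6 B cell markers summed to 1936 to 2974 CPM in macrophage PM2.5 libraries and 1644 to 2633 CPM in macrophage air libraries, scaled within that experiment. Spleen libraries stood apart in other ways. Alb, a liver transcript, had at most 5.97 CPM in spleen PM2.5 libraries, against 30.5 and 55.3 CPM in spleen air replicates 3 and 4. Erythroid markers summed to 524 to 9966 CPM in spleen PM2.5, highest in replicates 2 and 4, and to 224 to 1668 CPM in spleen air. They were not confined to spleen libraries. Their sum was 2308 to 4481 CPM in macrophage PM2.5 and 1232 to 4937 CPM in macrophage air, scaled within that experiment. In macrophage PM2.5 replicate 1 the treatment label reads air, although the title and description place it with PM2.5, and the title was followed.

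Promoter windows of 250 bases before to 50 bases after the start site were found in RefSeq (GRCm38.p6) for 8 of the 9 genes, all but Itgb3. Those of the 3 receptors that were higher in the macrophages than in whole spleen, and of Mfge8, the bridging molecule with the larger of the 2 differences in the other direction, are printed 5′ to 3′ on the strand of the gene.
Mertk, chr2:128698665-128698964, plus strand: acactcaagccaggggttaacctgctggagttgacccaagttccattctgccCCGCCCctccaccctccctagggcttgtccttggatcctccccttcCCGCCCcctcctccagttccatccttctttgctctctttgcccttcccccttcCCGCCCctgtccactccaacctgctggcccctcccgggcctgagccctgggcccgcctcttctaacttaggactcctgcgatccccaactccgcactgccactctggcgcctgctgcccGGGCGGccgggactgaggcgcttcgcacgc
Axl, chr7:25788684-25788983, minus strand: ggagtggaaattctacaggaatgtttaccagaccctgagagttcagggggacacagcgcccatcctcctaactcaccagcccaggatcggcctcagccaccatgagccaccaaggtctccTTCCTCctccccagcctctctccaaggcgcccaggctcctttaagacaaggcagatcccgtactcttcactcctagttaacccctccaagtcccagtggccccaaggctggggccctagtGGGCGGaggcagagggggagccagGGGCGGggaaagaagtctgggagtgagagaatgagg
Timd4, chr11:46810549-46810848, plus strand: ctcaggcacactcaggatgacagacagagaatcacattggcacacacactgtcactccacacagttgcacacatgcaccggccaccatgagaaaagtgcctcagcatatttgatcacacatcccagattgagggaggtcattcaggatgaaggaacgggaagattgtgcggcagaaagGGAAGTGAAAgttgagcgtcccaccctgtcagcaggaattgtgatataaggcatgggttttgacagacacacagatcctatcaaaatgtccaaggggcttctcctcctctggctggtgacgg
Mfge8, chr7:79149011-79149310, minus strand: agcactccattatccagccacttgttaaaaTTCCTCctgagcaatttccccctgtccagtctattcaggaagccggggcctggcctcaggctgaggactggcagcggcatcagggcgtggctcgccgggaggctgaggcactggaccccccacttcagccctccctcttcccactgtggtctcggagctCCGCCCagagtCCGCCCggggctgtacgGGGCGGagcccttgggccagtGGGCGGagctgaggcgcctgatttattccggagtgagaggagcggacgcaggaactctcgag
Capitals mark exact matches, on either strand, to 4 letter strings chosen after the sequences had been seen: an ETS core GAGGAA, an ETS-IRF composite (GGAA, 2 bases of any kind, then GAAA), a GC box GGGCGG and a TATA box TATAAA. Matches of different strings did not overlap in these 4 windows. The Timd4 window held the composite on its own strand, first base at -72 from the start site, and was the only one of the 8 windows with it and the only one without a GC box. The composite was present in 2.72% of 32851 mouse promoter windows of this length, the GC box in 35.7%, the ETS core in 28.3% and the TATA box in 13.6%. The Mertk window held 4 GC boxes and no ETS core, and the Axl window held 2 GC boxes and an ETS core. The Mfge8 window held 4 GC boxes and an ETS core. The TATA string was in none of the 8 windows. Base composition followed the same division, with 50.7% G and C in Timd4, 66.0% in Mertk, 60.3% in Axl and 64.3% in Mfge8. The median over the 32851 windows was 52.7%, so Timd4 was near it and the others above it. A match describes letters in the window and is not a measured binding site.

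Levels were set side by side across genes as CPM per kilobase of the longest annotated transcript, on the scaling of each experiment. In the macrophage preparations the order began with receptors. Axl led at 507 ± 89.2 CPM per kilobase in macrophage PM2.5 libraries and 649 ± 102 in macrophage air libraries (SD, n = 5 each). Mertk followed at 114 ± 17.6 and 133 ± 22.3 CPM per kilobase in macrophage PM2.5 and macrophage air, and Timd4 at 40.1 ± 5.14 and 50.4 ± 15.7. These 3 levels did not overlap with each other in either group. Mfge8 was next at 30.9 ± 12.6 CPM per kilobase in macrophage PM2.5 and 11.3 ± 3.48 in macrophage air, where its range overlapped that of Itgav at 11.04 ± 0.699. In macrophage PM2.5 the range of Mfge8 overlapped that of Timd4. Gas6, Pros1 and Itgb3 had between 2.81 and 6.78 CPM per kilobase on average in either macrophage group. Tyro3 was at the end of the order, with 0.0776 ± 0.0422 CPM per kilobase in macrophage PM2.5 and 0.106 ± 0.0371 in macrophage air, from 4 to 13 counts per library.

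In whole spleen a bridging molecule led the order. Mfge8 had 457 ± 20.9 CPM per kilobase in spleen PM2.5 libraries and 514 ± 91.3 in spleen air libraries (SD, n = 4 each), and no other member reached its range. Gas6, Timd4 and Axl came next with means of 26.2, 24.3 and 22.8 CPM per kilobase in spleen PM2.5, and of 10.4, 27.8 and 15.4 in spleen air. Gas6 came before Timd4 and Axl in spleen PM2.5 and after them in spleen air, but its range overlapped that of its nearest neighbours other than Mfge8 in both groups. Mertk averaged 6.33 ± 0.273 CPM per kilobase in spleen PM2.5 and 3.53 ± 1.47 in spleen air. Tyro3 was again last, at 0.757 ± 0.162 CPM per kilobase in spleen PM2.5 and 0.487 ± 0.228 in spleen air. With the union of all annotated exons as the length, only neighbours in these orders changed places.

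**Figure D1:**
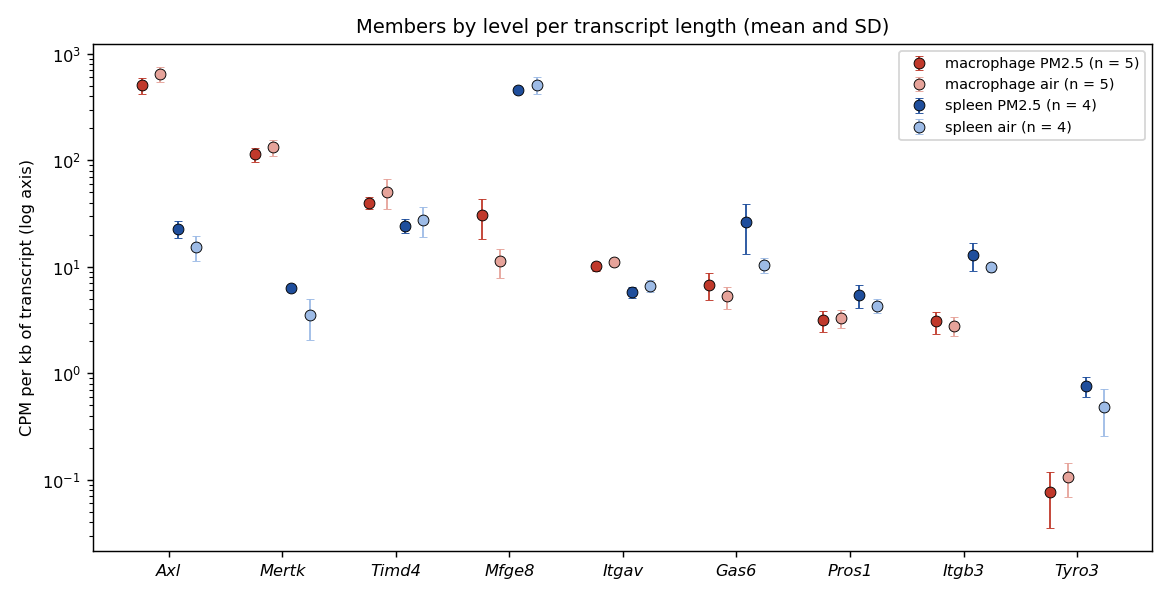
Level of each of the 9 members per kilobase of its longest transcript (CPM per kilobase, log axis) in the macrophage PM2.5, macrophage air, spleen PM2.5 and spleen air groups, as group means with SD bars. Axl leads in macrophages and Mfge8 in whole spleen, and Tyro3 is lowest in all 4 groups.

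How the 2 kinds of material differ was read from the air groups, on a scaling shared by all 18 libraries. Material and experiment cannot be told apart in this comparison, and in bulk samples fewer cells of a type and less RNA per cell cannot be told apart. By edgeR's quasi-likelihood test with Benjamini-Hochberg adjustment over all genes tested, 8 of the 9 members differed at an adjusted p under 0.05, 4 higher and 4 lower in macrophage air. Of all 17779 genes tested, 66.5% were called, 33.3% higher and 33.3% lower, so the members' count is read against a background where most genes differ. The median log2 difference of the members was -0.10, beside 0.00 over all genes.

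Axl averaged 3028 ± 479 CPM in macrophage air and 58.9 ± 15.8 CPM in spleen air, a log2 difference of 5.68 (SE 0.23, edgeR adjusted p = 3.3e-13) or 51.4-fold. Mertk averaged 626 ± 105 CPM in macrophage air and 13.6 ± 5.81 CPM in spleen air, a log2 difference of 5.52 (SE 0.25, edgeR adjusted p = 1.5e-12) or 46.0-fold. Timd4 was 2.21-fold higher, with 119.7 ± 37.3 CPM in macrophage air and 54.1 ± 16.9 CPM in spleen air (log2 1.15, SE 0.22, edgeR adjusted p = 0.00013). Of the receptors, Tyro3 differed the other way, with 0.518 ± 0.180 CPM in macrophage air and 1.95 ± 0.915 CPM in spleen air (log2 -1.90, SE 0.40, edgeR adjusted p = 0.00037). Axl, Mertk, Timd4 and Tyro3 did not overlap between the groups. Nor did Mfge8, Gas6, Itgav and Itgb3, so Pros1 was the only member with overlap. Among all genes tested, 56.2% had groups that did not overlap.

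None of the bridging molecules was higher in the macrophages. Mfge8 averaged 28.7 ± 8.84 CPM in macrophage air and 1070 ± 181 CPM in spleen air, 37.3-fold lower in the macrophages (log2 -5.22, SE 0.28, edgeR adjusted p = 1.0e-11). Gas6 averaged 14.7 ± 3.51 CPM in macrophage air and 23.7 ± 3.85 CPM in spleen air (log2 -0.69, SE 0.28, edgeR adjusted p = 0.035). The Gas6 call was lost without spleen air replicate 2 or without macrophage air replicate 1, 2 or 3, with adjusted p between 0.050 and 0.070. Pros1 averaged 11.9 ± 2.26 CPM in macrophage air and 12.8 ± 2.02 CPM in spleen air, with overlapping groups (log2 -0.10, 95% interval -0.53 to 0.32, edgeR adjusted p = 0.67). The integrin chains diverged. Itgav was 2.03-fold higher in macrophage air (85.1 ± 5.43 CPM against 41.9 ± 5.64 CPM in spleen air, edgeR adjusted p = 1.7e-07), while Itgb3 was 2.87-fold lower (17.7 ± 3.57 CPM in macrophage air against 51.1 ± 4.95 CPM in spleen air, edgeR adjusted p = 2.2e-06).

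The partner chains of the alpha v integrin placed Itgb3 among alternatives. Itgb5, another beta chain that pairs with alpha v and binds MFG-E8, differed by 4.84 on the log2 scale (edgeR adjusted p = 4.5e-12), higher in macrophage air. Itga2b, the platelet alpha chain that pairs with beta 3, differed by -2.25 (edgeR adjusted p = 1.1e-06), and 8 platelet and megakaryocyte markers, Itga2b among them, summed to 10.04 to 18.7 CPM in macrophage air and 60.7 to 174 CPM in spleen air on the same scaling. Of the other receptors of phosphatidylserine, Stab2, a scavenger receptor of sinusoidal lining cells and macrophages, differed by 5.19 and Cd300a, an inhibitory receptor, by 5.10 (edgeR adjusted p = 5.2e-13 and 7.8e-13), both higher in macrophage air. Timd2, a relative of Timd4 placed on the same list, differed by -2.50 (edgeR adjusted p = 0.00026). C1qc, a chain of the complement opsonin C1q, differed by 4.53 (edgeR adjusted p = 5.1e-13) and Lrp1, the receptor for calreticulin and C1q on phagocytes, by 7.04 (edgeR adjusted p = 2.1e-11).

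Whole spleens of PM2.5-exposed mice were compared with those of air-exposed mice to ask whether the transcripts for phosphatidylserine recognition differ after exposure. No member passed an adjusted p of 0.05, where 0.0121% of 16551 genes did. At an unadjusted p under 0.05, 3 of the 9 members were higher (Axl, Mertk and Gas6) and 0 lower, beside 8.93% of all genes higher and 7.76% lower. Of the 9 members, 6 had a log2 fold change above 0, with a median of 0.39, beside 51.8% of all genes and a median of 0.02. Mertk and Gas6 had all PM2.5 libraries above all air libraries, as had 4.41% of all genes. With DESeq2, which called 5.01% of the genes, both passed an adjusted p of 0.05. Markers of other cells moved in the same comparison. All 9 erythroid markers had a log2 fold change above 0, each at an unadjusted p under 0.05, with a median of 3.86. Markers of T cells were below 0 in 6 of 7 genes, with a median of -0.39, and those of B cells in 6 of 6, with a median of -0.27. The part of these cells in the values of the members was not tested.

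Mertk, a TAM receptor, had 26.6, 26.4, 27.0 and 29.0 CPM in spleen PM2.5 replicates 1 to 4. In spleen air replicates 1 to 4 it had 23.4, 16.6, 8.94 and 11.9 CPM. The PM2.5 libraries were tightly grouped and all above the air libraries, whose highest was replicate 1 and whose lowest were replicates 3 and 4, the libraries with liver transcripts. The log2 fold change was 0.84 (SE 0.26, edgeR adjusted p = 0.15, DESeq2 adjusted p = 0.036), or 1.79-fold. Without spleen air replicates 3 and 4 it was 0.44 (edgeR adjusted p = 0.69).

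Axl, also a TAM receptor, had 83.9, 91.4, 90.4 and 123 CPM in spleen PM2.5. In spleen air it had 89.5, 65.5, 50.5 and 57.4 CPM. The groups overlapped through spleen air replicate 1, which was above spleen PM2.5 replicate 1. The log2 fold change was 0.56 (SE 0.19, edgeR adjusted p = 0.17) and was 0.32 without spleen air replicates 3 and 4. Tyro3 ranged from 2.68 to 4.37 CPM in spleen PM2.5 and from 0.873 to 3.05 CPM in spleen air, with overlap (log2 fold change 0.63, 95% interval -0.27 to 1.53). Timd4 had 55.3, 44.5, 62.5 and 49.0 CPM in spleen PM2.5, against 83.3, 44.8, 45.7 and 67.9 CPM in spleen air. Its groups overlapped, with the highest library in air (log2 fold change -0.19, 95% interval -0.65 to 0.26, edgeR adjusted p = 0.67).

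Red pulp macrophage markers moved with Mertk and Axl in whole spleen. Of the 10 markers, 10 had a log2 fold change above 0 and 8 an unadjusted p under 0.05, and their sum was 631, 649.9, 781 and 927 CPM in spleen PM2.5 replicates 1 to 4, against 685, 398, 357 and 388 CPM in spleen air replicates 1 to 4. Spleen air replicate 1 was the highest air library for this sum, for Mertk and for Axl. Relative to 1000 CPM of these markers, Mertk had 31.2 to 42.1 CPM in spleen PM2.5 and 25.04 to 41.6 CPM in spleen air, and Axl had 116 to 141 CPM in spleen PM2.5 and 131 to 164 CPM in spleen air. Both ratios overlapped between the groups. The part of red pulp macrophages in the Mertk and Axl differences was not tested.

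Gas6, the ligand of all 3 TAM receptors, had 37.2, 48.0, 70.3 and 112 CPM in spleen PM2.5, against 23.7, 32.8, 24.5 and 24.8 CPM in spleen air. All PM2.5 libraries were above all air libraries, with replicate 4 the highest and a 3.0-fold range within the PM2.5 group. The log2 fold change was 1.33 (SE 0.30, edgeR adjusted p = 0.12, DESeq2 adjusted p = 0.0012), or 2.52-fold, the largest of the 9 members in spleen. The edgeR call appeared without spleen PM2.5 replicate 1 (1.53, adjusted p = 0.032), and without replicate 4 the value was 0.97 (adjusted p = 0.26). Stromal, mesothelial and endothelial transcripts also moved with Gas6. The sum of 8 stromal markers was 294, 368, 404 and 890.0 CPM in spleen PM2.5 replicates 1 to 4 and 224 to 376 CPM in spleen air. That of 7 mesothelial markers was 44.5, 46.2, 133 and 257 CPM in spleen PM2.5 and 3.12 to 5.91 CPM in spleen air. That of 8 endothelial markers was 324, 344, 374 and 421 CPM in spleen PM2.5 and 295 to 329 CPM in spleen air, and 4 of the 8, among them Vwf at 1.31, were higher at an unadjusted p under 0.05. All 3 sums had the order of Gas6 across the PM2.5 replicates, lowest in replicate 1 and highest in replicate 4. The sum of red pulp macrophage markers and the level of Pros1 had this order too. Per 100 CPM of stromal markers, Gas6 had 12.5 to 17.4 CPM in spleen PM2.5 and 6.31 to 11.9 CPM in spleen air. This ratio did not overlap between the groups, with all PM2.5 libraries above all air libraries. The part of stromal, mesothelial and endothelial cells or of red pulp macrophages in the Gas6 difference was not tested.

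Pros1, which encodes protein S, had 11.8, 18.2, 20.4 and 21.8 CPM in spleen PM2.5, against 17.4, 13.4, 12.5 and 13.8 CPM in spleen air. PM2.5 replicate 1 was the lowest of all 8 and the other PM2.5 libraries were above every air library (log2 fold change 0.34, 95% interval -0.14 to 0.81, edgeR adjusted p = 0.47). Mfge8, the abundant bridging transcript of the spleen, had 1054, 1005, 1078 and 1121 CPM in spleen PM2.5, against 948, 1341, 1096 and 1404 CPM in spleen air. The PM2.5 libraries lay within the range of the air libraries (log2 fold change -0.17, 95% interval -0.49 to 0.15, edgeR adjusted p = 0.60).

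Of the integrin chains, Itgb3 had 52.1, 60.8, 89.3 and 96.0 CPM in spleen PM2.5, against 61.0, 49.4, 60.7 and 57.2 CPM in spleen air. PM2.5 replicates 3 and 4 were above every air library and replicates 1 and 2 within their range (log2 fold change 0.39, 95% interval -0.03 to 0.81, edgeR adjusted p = 0.34). Platelet and megakaryocyte markers, of which 7 of 7 tested had a log2 fold change above 0, summed to 94.3 to 285 CPM in spleen PM2.5 and 67.6 to 192 CPM in spleen air. Per 100 CPM of these markers Itgb3 had 32.6 to 55.3 CPM in spleen PM2.5 and 31.7 to 73.0 CPM in spleen air. Across the PM2.5 replicates Itgb3 also had the order of the stromal, mesothelial and endothelial sums, which the red pulp macrophage sum and Pros1 shared. The part of platelets and of those cells in the Itgb3 difference was not tested. Itgav ranged from 34.3 to 46.1 CPM in spleen PM2.5 and from 40.6 to 53.8 CPM in spleen air, with overlap (log2 fold change -0.19, 95% interval -0.50 to 0.12).

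**Figure D2:**
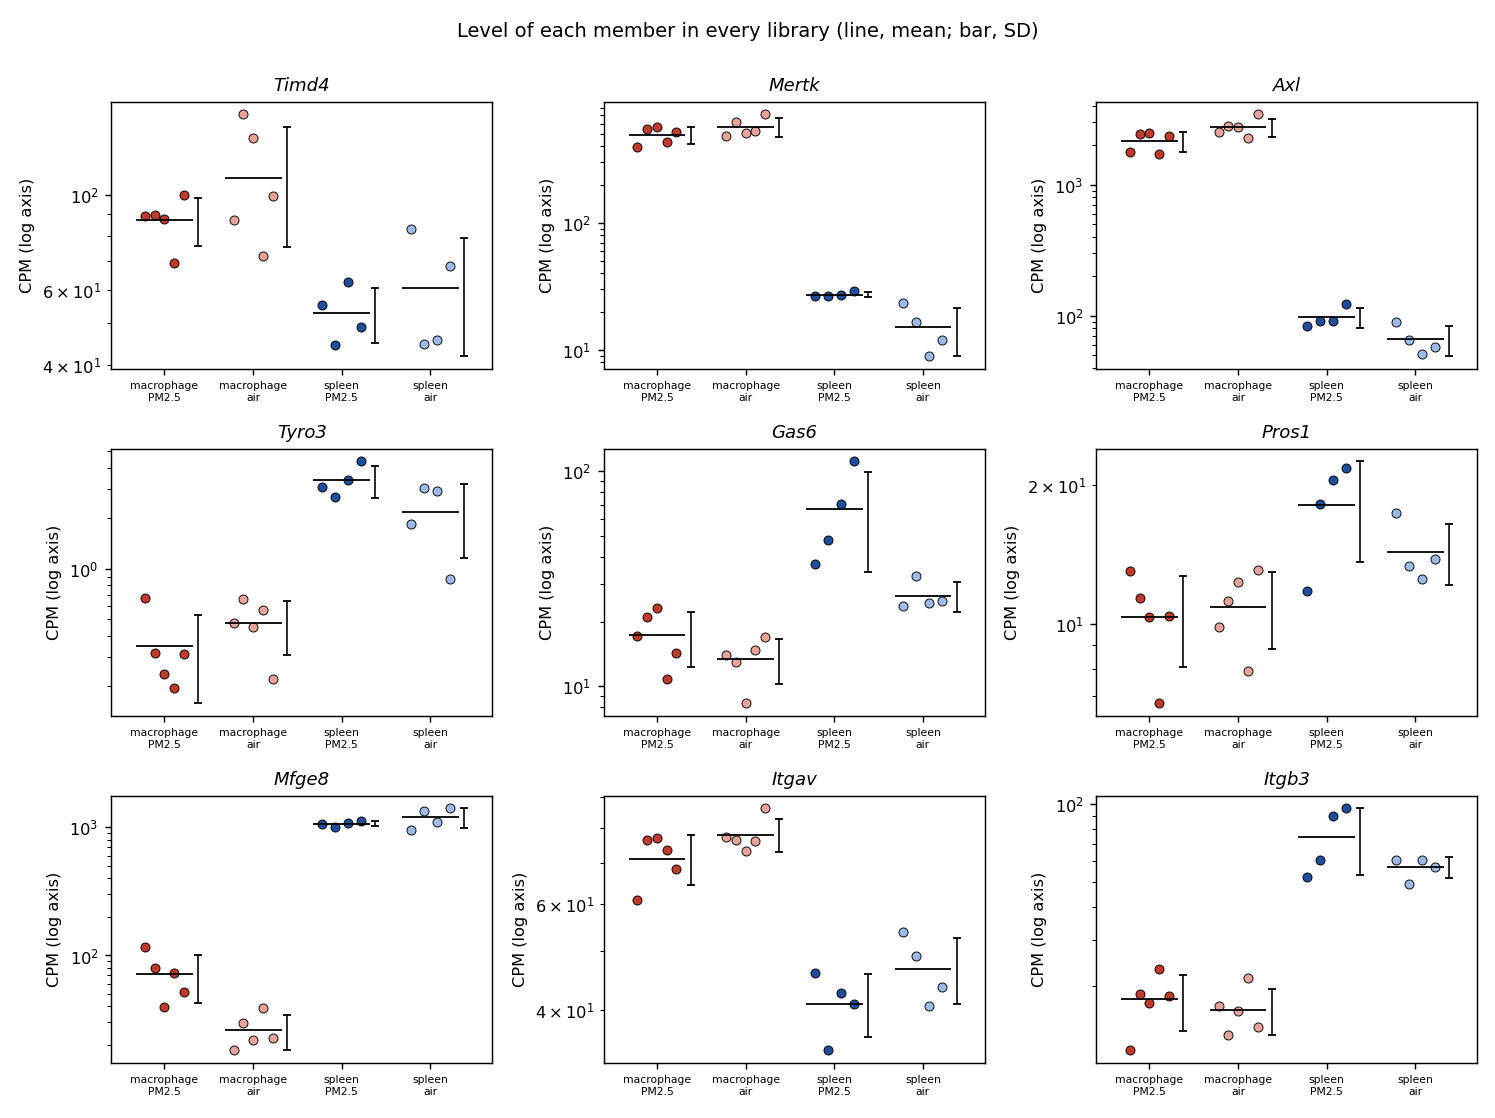
Level of each member (CPM on a log axis, scaled within each experiment) in every library of macrophage PM2.5, macrophage air, spleen PM2.5 and spleen air, with the group mean as a line and the SD as a bar. In spleen, Mertk and Gas6 libraries of PM2.5 lie above those of air. In macrophages the 5 PM2.5 libraries of Mfge8, from 39.9 to 116 CPM, lie above the air libraries, from 18.3 to 38.6 CPM.

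The same question was asked of macrophages isolated from the spleen. No member passed an adjusted p of 0.05, and nor did any of the 15696 genes tested (0%), the smallest adjusted p being 0.18. At an unadjusted p under 0.05, Mfge8 was higher and Axl lower, which makes 2 of the 9 members, beside 10.9% of all genes. Of the 9 members, 3 had a log2 fold change above 0, with a median of -0.13, beside 51.4% of all genes and a median of 0.01. With DESeq2, which called 1.11% of the genes, Mfge8 passed.

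Mfge8 had 116, 79.8, 39.9, 73.1 and 51.5 CPM in macrophage PM2.5 replicates 1 to 5, against 18.3, 29.9, 21.7, 38.6 and 22.7 CPM in macrophage air replicates 1 to 5. All PM2.5 libraries were above all air libraries, though PM2.5 replicate 3 and air replicate 4 nearly met. Groups did not overlap in this direction for 1.41% of the genes tested. The log2 fold change was 1.46 (SE 0.28, edgeR adjusted p = 0.26, DESeq2 adjusted p = 0.00025), or 2.75-fold, the largest of the 9 members in macrophages. The highest library was replicate 1, the one with the air tag. Without it the log2 fold change was 1.21 (edgeR adjusted p = 0.25), and with it counted as air 0.56 (edgeR adjusted p = 0.77).

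Markers of follicular dendritic cells moved with Mfge8 in the macrophage preparations. Of 6 markers tested, 5 had a log2 fold change above 0, 4 of them at an unadjusted p under 0.05, and none passed an adjusted p of 0.05. Clu, which encodes clusterin, had 22.1 to 68.9 CPM in macrophage PM2.5 and 12.6 to 22.1 CPM in macrophage air (log2 fold change 1.16, edgeR adjusted p = 0.26). Cxcl13, the chemokine that draws B cells into follicles, had 5.29 to 12.4 CPM in macrophage PM2.5 and 2.22 to 5.28 CPM in macrophage air (log2 fold change 0.87, edgeR adjusted p = 0.33). Coch had a log2 fold change of 0.91 and Madcam1 of 1.71, while Cr2 and Fcer2a, which B cells also express, had 0.07 and -0.10. PM2.5 replicate 1 was the highest of all macrophage libraries for Mfge8, Clu, Coch, Cxcl13 and Madcam1, and the lowest for Cr2. The sum of the 7 markers in the table, most of it Cr2, was 522 to 796 CPM in macrophage PM2.5 and 468 to 671 CPM in macrophage air, and none was at 0 in every library of a group. In whole spleen the same sum was 2497 to 3127 CPM in PM2.5 and 2581 to 3462 CPM in air. Mfge8 per CPM of Clu was 1.69 to 2.01 in macrophage PM2.5 and 1.26 to 1.77 in macrophage air, against 0.829 to 0.965 in spleen PM2.5 and 0.559 to 1.09 in spleen air. The part of follicular dendritic cells in the Mfge8 difference was not tested. Markers of plasma cells (1162 to 4042 CPM in macrophage PM2.5, 585 to 1950 CPM in macrophage air) and of neutrophils (58.6 to 183 CPM in macrophage PM2.5, 32.8 to 87.9 CPM in macrophage air) were also higher at an unadjusted p under 0.05, in 5 of 6 and 7 of 9 genes.

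**Figure D3:**
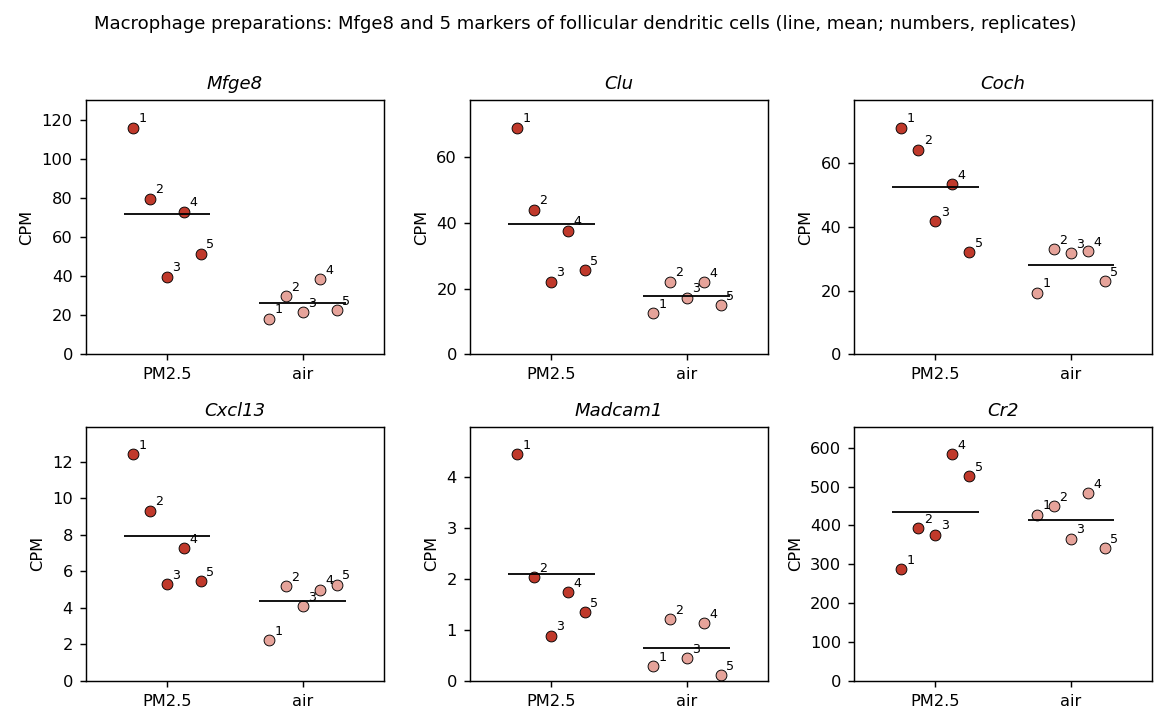
Mfge8 and the follicular dendritic cell markers Clu, Coch, Cxcl13, Madcam1 and Cr2 in each macrophage library (CPM, linear axes from 0), PM2.5 left of air, with the group mean as a line and replicate numbers beside the points. Mfge8, Clu, Coch, Cxcl13 and Madcam1 have higher means in PM2.5, while Cr2 overlaps widely.

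The receptors had log2 fold changes below 0 in macrophages, all 4 of them. Axl had 1794, 2443, 2502, 1704 and 2359 CPM in macrophage PM2.5, against 2534, 2800.2, 2763, 2291 and 3462 CPM in macrophage air. Only air replicate 4 was below the highest PM2.5 libraries, and the groups overlapped (log2 fold change -0.36, SE 0.14, edgeR adjusted p = 0.40). Mertk had 392.4, 546, 567, 429.8 and 519 CPM in macrophage PM2.5, against 485, 622, 506, 532 and 717 CPM in macrophage air, with PM2.5 replicates 1 and 4 below every air library (log2 fold change -0.22, SE 0.13, edgeR adjusted p = 0.57). The same replicates 1 and 4 were the lowest for Axl. Timd4 had 89.3, 89.8, 87.9, 69.1 and 99.9 CPM in macrophage PM2.5, against 87.2, 154, 135, 71.9 and 99.1 CPM in macrophage air. Air replicates 2 and 3 were above every other library, and the rest of the air group lay among the PM2.5 libraries (log2 fold change -0.33, 95% interval -0.74 to 0.08). Red pulp macrophage markers had log2 fold changes below 0 in 9 of 10 genes here. Per 1000 CPM of these markers Axl had 85.8 to 126 CPM in macrophage PM2.5 and 124 to 138 CPM in macrophage air, and Mertk had 18.8 to 28.6 CPM in macrophage PM2.5 and 25.2 to 30.2 CPM in macrophage air. Tyro3, at 4 to 12 counts per library in macrophage PM2.5 and 4 to 13 in macrophage air, gave a log2 fold change of -0.51 with a 95% interval of -1.32 to 0.31.

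Gas6 had 17.1, 21.1, 23.1, 10.9 and 14.2 CPM in macrophage PM2.5, against 14.1, 13.1, 8.33, 14.8 and 17.0 CPM in macrophage air, with overlapping groups (log2 fold change 0.37, 95% interval -0.11 to 0.85). Pros1 ranged from 6.75 to 13 CPM in macrophage PM2.5 and from 7.91 to 13.1 CPM in macrophage air (log2 fold change -0.07, 95% interval -0.46 to 0.32). Itgav ranged from 60.8 to 76.9 CPM in macrophage PM2.5 and from 73.3 to 86.3 CPM in macrophage air (log2 fold change -0.13, 95% interval -0.30 to 0.04). Itgb3 ranged from 11.3 to 23.3 CPM in macrophage PM2.5 and from 13 to 21.4 CPM in macrophage air (log2 fold change 0.13, 95% interval -0.27 to 0.52). All 3 overlapped between the groups.

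Whether the PM2.5 effect differed between macrophages and whole spleen was tested as a contrast of all 4 groups, which uses the same samples as the 2 comparisons above. Of 17779 genes, 1.46% passed, 0.416% with a macrophage effect above the spleen effect and 1.04% with one below it, and of the 9 members Mfge8 passed. Its PM2.5 effect was higher in macrophages than in spleen by 1.62 on the log2 scale (SE 0.35, edgeR adjusted p = 0.033), from 1.46 in the macrophage experiment and -0.17 in the spleen experiment. The call was lost when any of 8 libraries was left out, with adjusted p between 0.054 and 0.068. These were spleen air replicates 3 and 4, spleen PM2.5 replicates 3 and 4, macrophage air replicates 1, 3 and 5 and macrophage PM2.5 replicate 4. With macrophage PM2.5 replicate 1 counted as air the difference was 0.74 (edgeR adjusted p = 0.61).

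For Mertk, Axl and Gas6 the difference ran the other way, and none passed. The macrophage effect minus the spleen effect was -1.07 for Mertk (SE 0.29, edgeR adjusted p = 0.060), -0.93 for Axl (SE 0.25, edgeR adjusted p = 0.061) and -0.98 for Gas6 (SE 0.39, edgeR adjusted p = 0.17). Mertk and Axl were on the other side of the threshold with DESeq2, which called 5.87% of the genes (adjusted p = 0.0094 and 0.010), without a filter on low counts (edgeR adjusted p = 0.037 and 0.046), and without spleen air replicate 1 or 2. The remaining members lay between -1.12 for Tyro3 and 0.06 for Itgav, with 95% intervals that held 0.

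**Figure D4:**
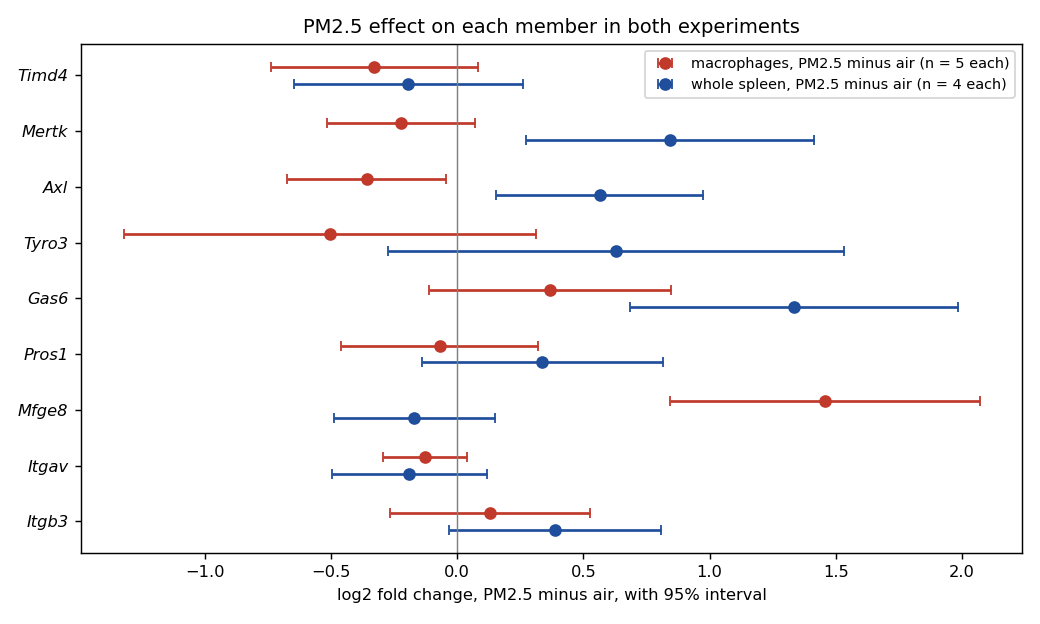
Log2 fold change of PM2.5 over air for each member in macrophages and in spleen, with 95% intervals of the edgeR fit. Mfge8 stands at 1.46 in macrophages and -0.17 in spleen, while Gas6 at 1.33 and Mertk at 0.84 stand highest in spleen.

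The other genes of the pathway were read from lists by role. In neither PM2.5 comparison did a gene of these 9 lists pass an adjusted p of 0.05. In spleen, 10 of 12 genes listed as other phosphatidylserine receptors had a log2 fold change above 0, with 5 higher and 0 lower at an unadjusted p under 0.05 and a median of 0.61, beside 0.02 over all genes. Stab2 had 31.3 to 55.1 CPM in spleen PM2.5 and 8.78 to 16.5 CPM in spleen air (log2 fold change 1.68, edgeR adjusted p = 0.061), and Stab1, its relative on sinusoidal and macrophage surfaces, had a log2 fold change of 1.67 (edgeR adjusted p = 0.12). Soluble opsonins had 8 of 9 genes above 0, among them C1qb at 0.44 and Thbs1, the bridging thrombospondin, at 1.02. All 4 tested partners of the alpha v and beta 3 chains were above 0, with Itgb5 at 0.83 and Itga2b at 0.93. Of 7 scavenger receptors, 6 were above 0, and Lrp1 had 43.7 to 169 CPM in spleen PM2.5 and 18.7 to 25.2 CPM in spleen air (log2 fold change 1.99, edgeR adjusted p = 0.094).

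The lists of genes that act inside the phagocyte or on the dying cell had median log2 fold changes between -0.10 and 0.25 in spleen. Engulfment signalling had 8 of 16 genes above 0 and a median of -0.01, with Bcar1, an adaptor of the Crk pathway, at 0.99 and Vav1, an exchange factor for Rac, at -0.24. Of the scramblases and flippases that set phosphatidylserine exposure, 6 of 10 were above 0, with Plscr4 at 1.08 and Ano6 at 0.24. The genes listed for the carboxylation of Gas6 and protein S gave 1 of 3 above 0, with Vkorc1 at -0.27 and Vkorc1l1 at -0.10. Regulators of TAM receptor shedding and feedback gave 4 of 5 above 0, with Ifnar1 at 0.14 and the sheddase Adam10 at 0.07. The list of nuclear receptors and other factors of efferocytosis, which also holds Abca1 and Abcg1, had 9 of 11 above 0, with Maf at 0.54.

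In macrophages 5 of the 9 lists had a median log2 fold change below 0. Engulfment signalling had 1 of 15 genes above 0 and a median of -0.11, with Elmo1 and Abl1 both at -0.32. The nuclear receptors and other factors of efferocytosis had 1 of 11 above 0 and a median of -0.22, with Klf4 at -0.45 and Klf2 at -0.22. Genes listed as other phosphatidylserine receptors had 3 of 11 above 0, with Timd2, a relative of Timd4, at 1.88 and Stab2 at -0.39. Timd2 had at most 1.67 CPM in macrophage PM2.5 and 0.659 CPM in macrophage air. Partners of the integrin chains had 2 of 4 above 0, with Itgb8 at 1.22 and Itgb5 at -0.22. Scavenger receptors had 3 of 8 above 0, with Scarb1 at -0.26 and Lrp1 at -0.34, and opsonins 4 of 9, with Anxa1 at 0.23 and Tub at -0.48. Exposure genes had 6 of 10 above 0, with Plscr1 at 0.30 and Ano6 at -0.30. The carboxylation genes had 3 of 3 above 0, with Vkorc1l1 at 0.17 and Ggcx at 0.07, and the shedding and feedback list 3 of 5, with Socs3, a feedback inhibitor of cytokine signalling, at 0.37 and Ifnar1 at -0.17.

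In the contrast of the effects, 4 receptor genes of these lists passed, all with a macrophage effect below the spleen effect: Stab2 (-2.08, edgeR adjusted p = 0.0011), Stab1 (-2.21, edgeR adjusted p = 0.018), Lrp1 (-2.34, edgeR adjusted p = 0.018) and Scarf1, a scavenger receptor of apoptotic cells (-1.04, edgeR adjusted p = 0.046). None of the opsonin, integrin partner, engulfment, exposure, carboxylation or shedding genes passed. Itgb5 was nearest among them, at -1.06 (edgeR adjusted p = 0.060).

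**Figure D5:**
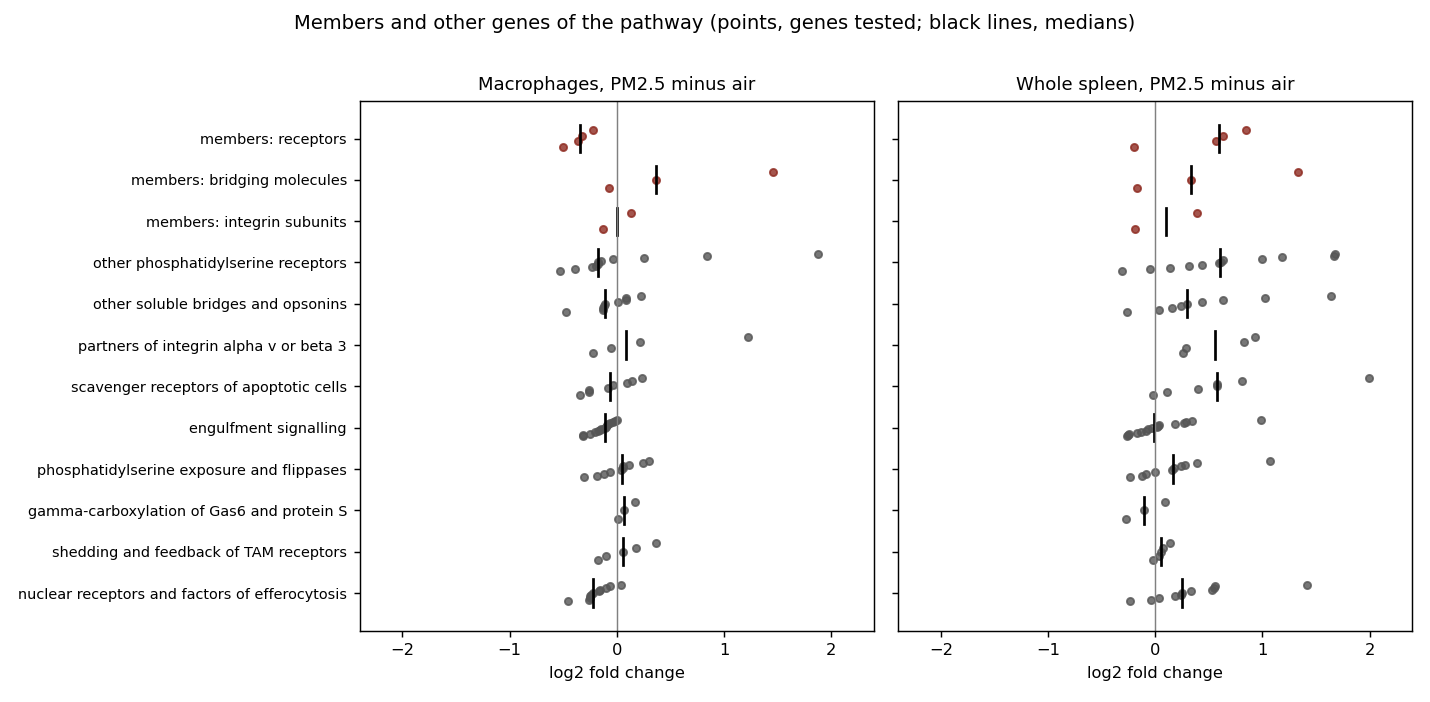
Log2 fold change of PM2.5 over air in macrophages (left) and whole spleen (right) for the tested genes of each list, 1 point per gene, with the list median as a black line and the members in red. In spleen the lists of other receptors, scavenger receptors and integrin partners centre above 0, and in macrophages engulfment signalling centres at -0.11.

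The genes whose levels followed each member most closely across libraries were found among 12651 genes, by Pearson's r of log2(CPM + 1) after the group mean was taken out, over 18 libraries that share depth and tissue content between genes. Mfge8 was followed by Gm15848 (r = 0.857) and Clu (r = 0.829). For Clu the relation was 0.959 over the 10 macrophage libraries and -0.386 over the 8 spleen libraries, so the sign differed between the 2 materials. The receptors had close companions in both materials, with Sort1 (r = 0.945) and Maged1 (r = 0.940) for Axl, Eogt (r = 0.906) and Sema6a (r = 0.901) for Mertk, and Cfb (r = 0.873) and Mllt11 (r = 0.869) for Timd4. Gas6 was followed by Nrxn2 (r = 0.851) and Lpl (r = 0.845), Pros1 by Tmem141 (r = 0.901) and Crip2 (r = 0.886), Itgav by Rab39 (r = 0.923) and Nsf (r = 0.911), and Itgb3 by Acss1 (r = 0.809) and Csf1 (r = 0.798). Tyro3, at few counts, was followed by Kdm1a (r = 0.827) and B230118H07Rik (r = 0.818).

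On GRCm38, the coordinates of the matched GENCODE M21 entries place Timd4 (ENSMUSG00000055546) at chr11:46810800-46844332, Mertk (ENSMUSG00000014361) at chr2:128698956-128802894, Axl (ENSMUSG00000002602) at chr7:25757273-25788705 and Tyro3 (ENSMUSG00000027298) at chr2:119797733-119818104. Gas6 (ENSMUSG00000031451) lies at chr8:13465374-13494490, Pros1 (ENSMUSG00000022912) at chr16:62854307-62929346 and Mfge8 (ENSMUSG00000030605) at chr7:79133768-79149060. Itgav (ENSMUSG00000027087) lies at chr2:83724397-83806916 and Itgb3 (ENSMUSG00000020689) at chr11:104608000-104670476. Whether counting used strand is not given in the sources used here, and exons of Gas6 and Itgav overlap genes of the opposite strand. Over all libraries the overlapping Tmem255b had 103 counts beside 10898 for Gas6, and Gm13684 had 70 beside 24621 for Itgav.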

How the data were processed

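The authors deposited unnormalized read counts per Ensembl gene. The submitters' processing notes name HTSeq 0.10.0 and FastQC 0.10.1 and the builds mm10 and GRCm38. Per the labels' protocols, a Qiagen kit was used for RNA and a NEBNext Ultra II kit for the libraries. Aligner, annotation and strand setting: not given in the sources used here. Of 55414 identifiers 52133 matched GENCODE M21 by identifier, and the 3281 others carried 0.303% of the counts. No library was a copy of another in its group.

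Counts were tested in R 4.3.3 with edgeR 4.0.16: filterByExpr (minimum count 10, minimum total 15), TMM scaling, two-sided quasi-likelihood tests, Benjamini-Hochberg adjustment over all genes tested and a threshold of 0.05. The 2 experiments had separate fits, and the contrast of the 2 effects and the comparison of the air groups in a fit of all 18 libraries. CPM shown for 1 experiment uses its own scaling, and values of the air comparison use the shared one, on which levels differ slightly. Intervals are 95% and not adjusted for multiple tests. Groups come from the titles. The alternatives were DESeq2 1.42.0, limma-voom (limma 3.58.1), other scalings and filters, a joint fit, a replicate block and the omission of libraries. The scripts were tested on simulated data.

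Equal replicate numbers were not taken as pairs: the labels do not say that they pair animals. The members, lists and alternatives were chosen with earlier results of these data known. Of the lists, the genes named are those past the threshold, otherwise the 2 with the smallest p in a comparison. The results of 1 listed gene are not reported here. For the air groups up to 2 per direction were named from some of the lists, and for each member the 2 genes with the highest correlation. Promoter sequences are from RefSeq, GRCm38.p6.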

Additional observations from a re-analysis of the deposited data

Results flagged for a closer look

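The PM2.5 effect on Mfge8 differed between macrophages and spleen by 1.62 on the log2 scale in the test of that difference (SE 0.35, edgeR adjusted p = 0.033). All 5 macrophage PM2.5 libraries were above all 5 macrophage air libraries, while the 4 spleen PM2.5 libraries lay within the range of the 4 spleen air libraries. The call was lost when any of 8 single libraries was left out, with limma-voom (adjusted p = 0.068), and in 12 of 27 alternatives in all. The value was 0.74 (edgeR adjusted p = 0.61) with macrophage PM2.5 replicate 1 counted as air. Of the follicular dendritic cell markers, Clu, Coch, Cxcl13 and Madcam1 moved with Mfge8 in macrophages, while Cr2 and Fcer2a did not. The part of these cells was not tested.

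In 36 groups of values, 2 held a library far from the others by Dixon's criterion, which chance gives in about 1 of 20 groups. Tyro3 had 0.669 CPM in macrophage PM2.5 replicate 1, from 12 counts, against 0.194 to 0.316 CPM in the other 4 libraries of that group. This is the library with the air tag in its treatment field. Gas6 had 32.8 CPM in spleen air replicate 2, against 23.7 to 24.8 CPM in the other 3.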

How the results depend on the processing

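In spleen, 0 members were called, and 2 with DESeq2 (Mertk and Gas6), 2 in the joint fit of all 18 libraries (the same 2 genes), 1 without a filter (Gas6) and 0 to 1 when a library was left out. In macrophages 0 were called, and 1 with DESeq2 (Mfge8). For the difference of the effects 1 was called (Mfge8), against 3 with DESeq2 and 3 without a filter (Mfge8, Mertk and Axl both times), 0 with limma-voom, 0 with macrophage PM2.5 replicate 1 counted as air, 0 without spleen air replicates 3 and 4, 0 without spleen PM2.5 replicates 2 and 4, and 0 to 3 when a library was left out. In the air comparison 8 were called, and 7 to 8 under the alternatives, always through Gas6. Upper-quartile scaling moved the median of all genes there to -0.29, and all 8 kept their direction and call. When a library was left out, Pros1 in macrophages ranged from -0.170 to 0.0469 (above 0 without macrophage PM2.5 replicate 4), and in the difference Timd4 ranged from -0.344 to 0.0102 (above 0 without macrophage air replicate 2) and Itgav from -0.0284 to 0.129 (below 0 without spleen air replicate 1 or spleen PM2.5 replicate 2). Without spleen PM2.5 replicates 2 and 4 the Itgav difference was -0.0672. None of these was a call, and the cause was not tested.

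Over all genes DESeq2 called 830 in spleen, 175 in macrophages and 1044 in the difference, against 2, 0 and 259 with edgeR. In spleen the joint fit called 1050 and no filter 461. With a replicate block the members called stayed at 0 in both experiments, and Mfge8 in macrophages stood at 1.40 (adjusted p = 0.17). Same-numbered libraries correlated between -0.151 and 0.083 in spleen and between -0.16 and 0.37 in macrophages, and a PM2.5 library correlated best with its own number in 1 of 4 and 2 of 5 cases, so the numbers were not used as pairs. Tyro3 in macrophages, at 4 to 13 counts per library, was tested in 17 of 19 alternatives.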
